A study of Mus musculus with 4 samples.

Results

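Imprinted genes are transcribed mainly from the copy inherited from 1 parent. The 47 genes described here were taken as a list of known mouse imprinted genes whose symbols were found among the 23420 genes of the count tables. They fall into 18 loci, 6 of them with 1 listed gene, and are known as expressed from the paternal copy (24 genes), the maternal copy (22 genes) or a different copy by isoform (1 gene, Gnas). The counts hold no allele information, so the expressed copy is background here and was not measured. RNA was sequenced from E14, a wild type mouse embryonic stem cell line grown on gelatin without feeder cells and held in the undifferentiated state by leukemia inhibitory factor. The control group held 2 libraries at 0 h and the ATRA group 2 libraries at 24 h of all-trans retinoic acid (ATRA, 1 µM), a vitamin A derivative that activates nuclear retinoic acid receptors. All 4 libraries come from the same wild type line, without a knockout or transgene. Controls were taken at 0 h, so the agent and 24 h of culture cannot be told apart, and the labels leave unsaid whether vehicle was given to the 0 h cells. A treatment label of the ATRA samples has a millimolar unit where their titles give 1 µM. Replicates are not labelled as separate cultures, so every p-value here rests on the variation among these libraries alone, and that may be technical.

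Imprinting is set in the germ line, where DNA methylation is laid down on 1 parental copy at short control regions. In the embryo and in stem cells these marks are kept through DNA replication by DNMT1 with UHRF1, and by zinc finger proteins such as ZFP57, which binds the methylated hexamer TGCCGC and recruits TRIM28 and SETDB1. Many paternally expressed genes promote fetal and placental growth, and several maternally expressed genes restrain it. Within a locus a long non-coding RNA, an insulator or a shared enhancer often links the genes, so neighbours can carry opposite expressed copies. Cultured stem cells are known to lose some of these marks.

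A promoter stretch of each of Mest, Plagl1, Meg3 and Phlda2, members with wide differences, is shown. Methylation of imprinted promoters, and binding by ZFP57 or retinoic acid receptors there, would be read in these stretches. They are the bases before the transcription start in RefSeq (GRCm38.p6), shortened where GENCODE annotates a UTR of a protein-coding transcript, and are written 5′ to 3′ on the gene's strand. Capitals mark the ZFP57 hexamer TGCCGC or its reverse complement GCGGCA. The Mest stretch is chr6:30737800-30738049 (plus strand), inside the gene's annotated span and in no annotated UTR. The Plagl1 stretch is chr10:13090582-13090787 (plus strand), the Meg3 stretch chr12:109540746-109540995 (plus strand) and the Phlda2 stretch chr7:143502542-143502774 (minus strand).
Mest: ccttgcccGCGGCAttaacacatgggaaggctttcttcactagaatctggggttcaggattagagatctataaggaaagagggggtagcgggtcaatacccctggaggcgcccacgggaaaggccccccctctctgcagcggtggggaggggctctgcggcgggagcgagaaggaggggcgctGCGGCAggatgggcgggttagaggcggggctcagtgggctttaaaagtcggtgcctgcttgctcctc
Plagl1: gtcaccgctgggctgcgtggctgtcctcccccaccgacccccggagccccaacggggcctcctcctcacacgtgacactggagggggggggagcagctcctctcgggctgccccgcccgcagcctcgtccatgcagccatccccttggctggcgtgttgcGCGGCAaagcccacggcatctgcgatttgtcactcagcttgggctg
Meg3: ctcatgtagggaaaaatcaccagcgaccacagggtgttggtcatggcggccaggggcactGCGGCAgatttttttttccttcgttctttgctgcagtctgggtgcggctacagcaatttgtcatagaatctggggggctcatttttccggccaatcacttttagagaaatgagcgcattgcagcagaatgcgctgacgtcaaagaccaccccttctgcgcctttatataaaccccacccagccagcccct
Phlda2: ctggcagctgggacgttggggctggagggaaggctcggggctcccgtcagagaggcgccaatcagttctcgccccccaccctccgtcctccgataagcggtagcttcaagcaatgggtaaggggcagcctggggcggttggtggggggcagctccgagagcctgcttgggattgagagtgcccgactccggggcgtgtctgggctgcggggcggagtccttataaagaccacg

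The Mest stretch held 2 hexamers and 14 CpG dinucleotides, the Plagl1 stretch 1 and 15, and the Meg3 stretch 1 and 10. Mest and Meg3 also have stretches at other starts that are not shown. That of Mest at chr6:30733256-30733453 held 0 hexamers and 4 CpG dinucleotides, and that of Meg3 at chr12:109545148-109545397 held 0 and 0. The Phlda2 stretch held 16 CpG dinucleotides and no hexamer. In background, the Mest and Plagl1 promoters are methylated on the maternal copy from the egg on, while Phlda2 has no germ line mark of its own. Promoters in the table matched 41 of the 47 members, with 59 windows of 250 bases, and 6 members had no entry. The hexamer was found on either strand in 9 of the 59 windows (15.3%) and in 8.7% of all 32851 windows of this length. Of these 9, 2 are Mest windows that share 247 bases, so by gene it was found in 8 of 41 members (19.5%) and in 9.8% of all 27025 genes of the table. The median window of the members held 10 CpG dinucleotides, against 6 over all windows. A pair of retinoic acid receptor sites in direct repeat (each site AGGTCA or AGTTCA or GGGTCA or GGTTCA, on either strand) with 5 bases between was found in 0 of the 59 windows and in 0.09% of all windows. With 2 bases between, it was found in 0 and in 0.17%. A single such site was found in 27.1% of the members' windows and 38.6% of all. These counts describe letters in these windows only.

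Of the 47 genes, 43 had enough counts to be tested among 14256 genes, and 4 (Snrpn, Kcnq1, Slc22a3 and Rasgrf1) did not. The libraries held 11086233 to 31005634 counts in genes, and levels are given as CPM, the count scaled to the TMM-adjusted library size. When genes were divided into deciles by the GC content of their transcripts, ATRA replicate 2 exceeded ATRA replicate 1 by a median of 0.85 on the log2 scale in the lowest decile and lay at −1.31 in the highest, where control replicate 2 over 1 gave −0.01 and −0.31. Across the same deciles the median log2 fold change of all genes went from 1.03 to −1.72. A second fit, called GC-corrected here, takes out every difference that follows GC content, be it technical or an effect of the treatment. After it those medians were 0.02 and −0.04. Each result is therefore given without and with this correction, as the log2 fold change of ATRA over control ± its standard error (SE), with edgeR's quasi-likelihood p adjusted over all genes tested and a threshold of 0.05. "Rose" and "fell" are used only of genes past it. Groups that do not overlap are a description and no test. With 2 libraries in each group this often happens without a difference, and its share over all genes was not counted. Since these are bulk samples, fewer cells of a type and less RNA per cell cannot be told apart. The retinoic acid response genes Rarb, Cyp26a1, Stra8, Hoxb1 and Dhrs3 all rose in both fits, by 3.42 to 7.80 on the log2 scale.

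In the uncorrected fit 2 of the 43 members passed: Mest rose and Phlda2 fell. Over all genes 0.723% rose and 0.407% fell (103 and 58 genes, and 232 and 371 with DESeq2's size factors in place of TMM). In the GC-corrected fit 14 members passed. Mest, Plagl1, Ddc, Peg12, Grb10, Peg10, H13, H19, Peg3 and Ppp1r9a rose, while Phlda2, Meg3, Rian and Commd1 fell, beside 8.56% of all genes that rose and 7.72% that fell. At an unadjusted p under 0.05 there were 23 of 43 members in either fit, and 5941 and 5450 of the 14256 genes. The median log2 fold change of the members was 0.44 uncorrected, against −0.02 for all genes, and 0.17 GC-corrected, against 0.01. A difference of at least 2-fold was seen uncorrected in 14 members upward (32.6%) and 9 downward (20.9%), where all genes had 14.5% and 24.3%. GC-corrected, it was seen in 11 (25.6%) and 5 (11.6%), where all genes had 9.55% and 7.98%.

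**Figure D1:**
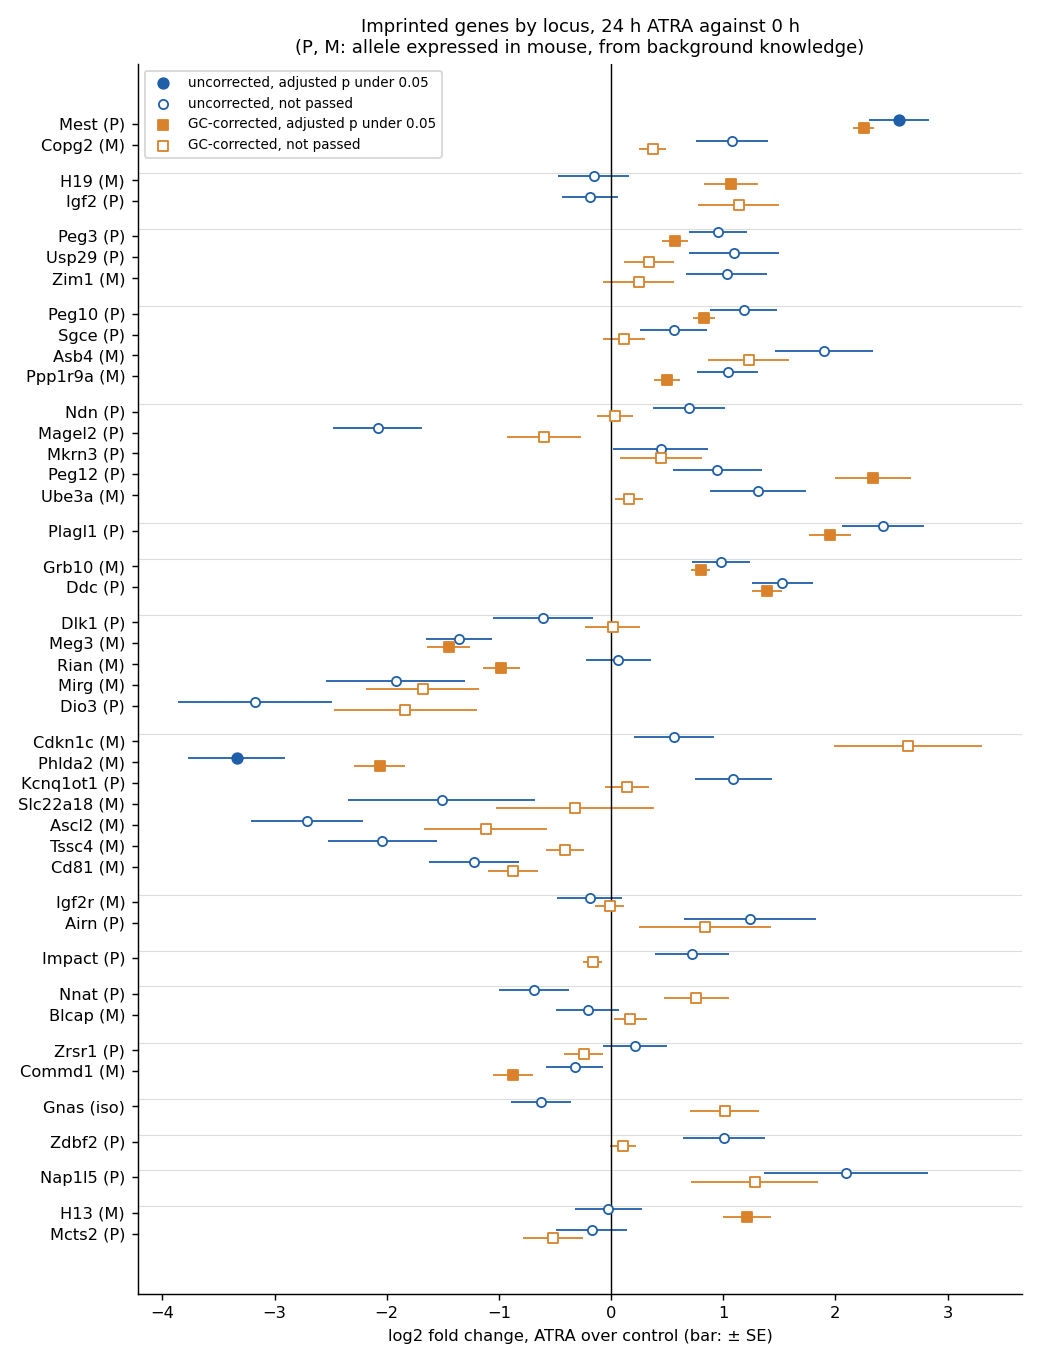
Log2 fold change of the 43 tested imprinted genes (ATRA over control, bar ± SE) by locus, uncorrected (circles) and GC-corrected (squares), with the expressed copy (P paternal, M maternal) in brackets. Filled symbols passed an adjusted p of 0.05: Mest and Phlda2 are filled in both fits, and 12 others only as squares.

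**Figure D2:**
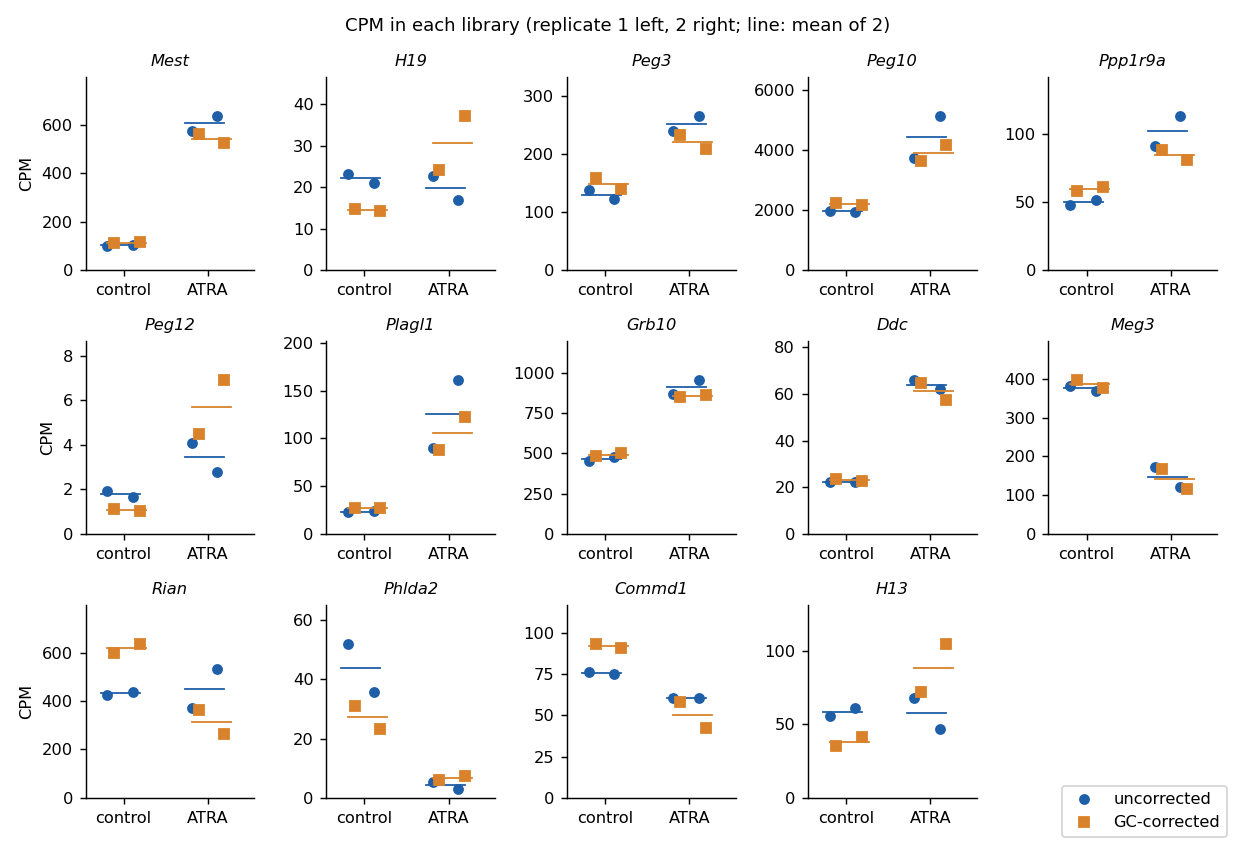
CPM of the 14 members that passed in either fit, in each library, uncorrected (circles) and GC-corrected (squares); lines are means of 2 libraries and each axis starts at 0. The ATRA libraries of Mest lie at 576 and 638 CPM, above both controls, while for H19 and H13 the uncorrected values of the groups overlap and the corrected ones do not.

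Mest, which encodes a hydrolase-like protein of the endoplasmic reticulum expressed in the embryonic mesoderm, had the largest uncorrected rise among the members. It was counted at 99.8 and 105 CPM in the controls and at 576 and 638 CPM with ATRA. The groups did not overlap and their replicates lay close together. The log2 fold change was 2.57 ± 0.27 (adjusted p = 0.0295) uncorrected and 2.25 ± 0.095 (adjusted p = 0.00184) GC-corrected. Per kilobase of transcript, its uncorrected level went from 38.4 to 228 CPM, from the ninth to the second place among the 47 genes. The gene spans chr6:30723547-30748465 (GRCm38), and its neighbour on the opposite strand is Copg2, a coatomer subunit expressed from the maternal copy in some tissues. Copg2 was counted at 43.4, 49.2, 75.8 and 120 CPM in control replicates 1 and 2 and ATRA replicates 1 and 2. Its groups did not overlap, and its log2 fold change was 1.08 ± 0.32 (adjusted p = 0.0806) uncorrected and 0.37 ± 0.12 (adjusted p = 0.0869) GC-corrected. The exons of Mest and Copg2 share 912 bases in GENCODE, 23.1% of those of Mest, and with the strand setting of the counting not given, reads there may not be assigned to 1 of the genes. With 1 library left out, the log2 fold change of Mest ran from 2.50 to 2.62 uncorrected and from 2.21 to 2.31 GC-corrected. The uncorrected call of Mest did not stand in all of these fits. Whether a call stands there depends largely on which pair of libraries remains.

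Phlda2, a small protein that restrains placental growth, fell the furthest. The controls held 52.1 and 35.6 CPM and the ATRA libraries 5.44 and 3.09 CPM, so that every ATRA value lay well below both controls. Its log2 fold change was −3.34 ± 0.43 (adjusted p = 0.0399) uncorrected and −2.06 ± 0.23 (adjusted p = 0.0121) GC-corrected. The transcript has 56.5% GC, and the correction narrows the difference to 31.0 and 23.3 CPM against 5.88 and 7.34 CPM. With 1 library left out, the log2 fold change ran from −3.85 to −3.01 uncorrected and from −2.26 to −1.85 GC-corrected. The GC-corrected call did not stand in all of these fits.

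Phlda2 lies at 1 end of the Kcnq1 domain (chr7:142966829-143503150), where the paternally expressed non-coding RNA Kcnq1ot1 is known to silence its neighbours on the paternal copy. The 7 tested genes of this domain gave values in both directions. Kcnq1ot1 itself was counted at 8.87, 10.3, 16.8 and 24.2 CPM, with groups that did not overlap and a log2 fold change of 1.09 ± 0.35 (adjusted p = 0.0840), but the GC-corrected value was 0.14 ± 0.20 (adjusted p = 0.617) and the corrected groups overlapped. Cd81, a tetraspanin and per kilobase the most abundant gene of the domain, was counted at 181 and 186 CPM in the controls and 107 and 50.2 CPM with ATRA. Both ATRA values were below both controls, with a log2 fold change of −1.22 ± 0.40 (adjusted p = 0.0881) uncorrected and −0.87 ± 0.22 (adjusted p = 0.0560) GC-corrected. Tssc4, a splicing factor, and Ascl2, a transcription factor of trophoblast progenitors, had uncorrected log2 fold changes of −2.04 and −2.71 and GC-corrected ones of −0.41 and −1.12, and neither passed in either fit.

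Cdkn1c, a cyclin-dependent kinase inhibitor that restrains growth, had positive values in both fits and passed in neither. Its CPM was 38.8 and 30.6 in the controls and 38.1 and 64.4 with ATRA, so the uncorrected groups overlapped. The log2 fold change was 0.56 ± 0.36 (adjusted p = 0.257). With 59.4% GC its corrected values were 18.9, 18.0, 44.7 and 189 CPM, which separates the groups and also sets the ATRA libraries far apart, and the corrected log2 fold change was 2.65 ± 0.66 (adjusted p = 0.0529). Slc22a18, a transporter, held at most 1.66 CPM and had no count in ATRA replicate 2, which at that depth allows up to 0.309 CPM. Kcnq1, a potassium channel subunit, had 2 and 4 counts in the controls and no count in either ATRA library.

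**Figure D3:**
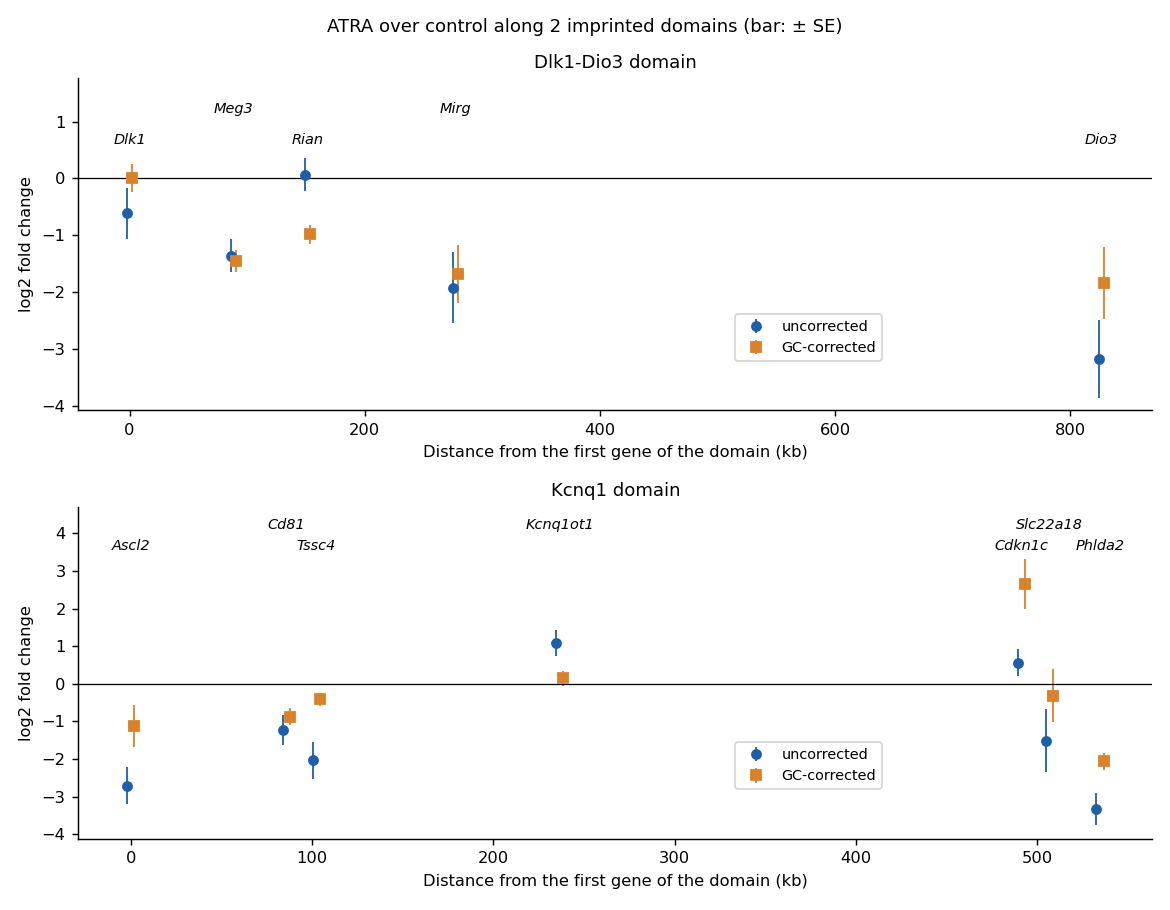
Log2 fold change (± SE) of tested members along the Dlk1-Dio3 and Kcnq1 domains, against the distance in kilobases of each gene's lower coordinate from that of the first gene. In the Dlk1-Dio3 panel the GC-corrected values of Meg3, Rian, Mirg and Dio3 lie between −0.98 and −1.83 and that of Dlk1 at 0.01, while in the Kcnq1 panel Cdkn1c and Phlda2, at 492 and 535 kb, lie at opposite ends.

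The Dlk1-Dio3 domain (chr12:109452823-110281097) holds non-coding RNAs made from the maternal copy, Meg3, Rian and Mirg, which host small nucleolar RNAs and microRNAs, and protein genes expressed from the paternal copy. Meg3 fell in the GC-corrected fit. It was counted at 383 and 369 CPM in the controls and at 172 and 122 CPM with ATRA, with clearly separate groups. Its log2 fold change of −1.35 ± 0.29 (adjusted p = 0.0649) uncorrected became −1.45 ± 0.19 (adjusted p = 0.0172) GC-corrected, and its 49.2% GC leaves its values nearly as they were. Mirg was counted at 26.5, 25.3, 10.8 and 2.58 CPM, lower in both ATRA libraries, with ATRA replicate 2 far below replicate 1. It did not pass in either fit, with −1.92 ± 0.62 (adjusted p = 0.0861) and −1.68 ± 0.50 (adjusted p = 0.0753).

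Rian, per kilobase the most abundant gene of the domain, gave different directions in the fits. Its uncorrected values were 424 and 439 CPM in the controls and 372 and 531 CPM with ATRA, 1 ATRA library below and 1 above both controls. The log2 fold change was 0.07 ± 0.29 (adjusted p = 0.869). Rian has the lowest GC content of the members (35.8%), and its corrected values were 598, 637, 361 and 265 CPM, with a log2 fold change of −0.98 ± 0.16 (adjusted p = 0.0262). Of the paternally expressed genes of the domain, Dlk1, a membrane protein of the Notch ligand family, was near 9 CPM in the controls (9.12 and 8.95) and at 8.06 and 3.61 CPM with ATRA. Its corrected groups overlapped, and the log2 fold change was −0.61 ± 0.45 (adjusted p = 0.317) uncorrected and 0.01 ± 0.24 (adjusted p = 0.973) GC-corrected. Dio3, the deiodinase that inactivates thyroid hormone, had 66 counts over the controls and 3 over the ATRA libraries. Scaled to depth without GC correction, controls over ATRA was 10.2-fold, with an exact 95% counting interval of 3.35 to 50.9. That interval covers counting error only. With 57.8% GC, the log2 fold change of Dio3 was −3.17 ± 0.69 (adjusted p = 0.0619) uncorrected and −1.83 ± 0.64 (adjusted p = 0.0886) GC-corrected. Dio3 did not pass in either fit.

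Plagl1, a zinc finger transcription factor that restrains proliferation and is known to act on other imprinted genes, rose in the GC-corrected fit and stood just short of the threshold without the correction. Controls held 22.9 and 24.0 CPM and ATRA libraries 90.3 and 162 CPM. Both ATRA values were several times both controls, and ATRA replicate 2 was the higher. The log2 fold change was 2.42 ± 0.37 (adjusted p = 0.0522) uncorrected and 1.95 ± 0.19 (adjusted p = 0.0103) GC-corrected.

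Grb10, an adaptor protein that dampens insulin and growth factor signalling and is expressed from the maternal copy in most tissues, lies beside Ddc, the decarboxylase of dopamine and serotonin synthesis, which is expressed from the paternal copy in the heart. Both rose in the GC-corrected fit. Grb10 was counted at 450, 475, 869 and 958 CPM, with log2 fold changes of 0.98 ± 0.26 (adjusted p = 0.0717) and 0.80 ± 0.084 (adjusted p = 0.0111) uncorrected and corrected. Ddc was counted at 22.4, 22.1, 66.2 and 62.0 CPM, with 1.53 ± 0.27 (adjusted p = 0.0578) and 1.39 ± 0.13 (adjusted p = 0.00966). In both genes the replicates lay close together and the groups were separate. At 48.5% and 48.9% GC the correction changed the log2 fold changes little, while the SE and the adjusted p became smaller.

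Peg10, a gene derived from a retrotransposon and needed for the placenta, was the most abundant member per kilobase in both groups. It was counted at 1962 and 1943 CPM in the controls and 3720 and 5136 CPM with ATRA. It rose in the GC-corrected fit, with log2 fold changes of 1.18 ± 0.30 (adjusted p = 0.0693) and 0.83 ± 0.10 (adjusted p = 0.0142). Peg10 alone made up 0.202% and 0.203% of the counts in genes in the controls and 0.395% and 0.449% with ATRA. All 47 members together made up 0.585% and 0.587%, and 0.877% and 0.937%. Without Peg10 and Mest the other 45 held 0.373% in each control and 0.421% and 0.432% with ATRA.

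In the same cluster Ppp1r9a, the neural actin-binding protein neurabin, rose in the GC-corrected fit. It was counted at 47.8, 51.4, 91.0 and 113 CPM, with separate groups and log2 fold changes of 1.04 ± 0.27 (adjusted p = 0.0709) and 0.50 ± 0.11 (adjusted p = 0.0432). Sgce, a sarcoglycan, and Asb4, a ubiquitin ligase adaptor, did not pass in either fit (log2 fold changes of 0.56 and 1.90 uncorrected, 0.11 and 1.23 corrected). Sgce, Peg10, Ppp1r9a and Asb4 lie within 759 kb of chromosome 6, and all 4 had positive values in both fits. All 4 have under 48% GC, where 19 of 21 tested members were positive uncorrected and 16 of 21 GC-corrected. The corrected value of Sgce was 0.11 ± 0.19, with corrected groups that overlapped.

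At the Peg3 locus the paternally expressed zinc finger gene Peg3 rose in the GC-corrected fit. Controls held 137 and 123 CPM and ATRA libraries 239 and 266 CPM, and the log2 fold changes were 0.96 ± 0.26 (adjusted p = 0.0728) and 0.57 ± 0.12 (adjusted p = 0.0355). Its groups were well separated. Usp29, a deubiquitinase gene that starts beside Peg3 on the opposite strand, and the maternally expressed zinc finger gene Zim1 were scarce, at no more than 10.3 CPM. Their values of 1.10 and 1.03 uncorrected were 0.34 and 0.24 after correction, and they passed in neither fit.

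**Figure D4:**
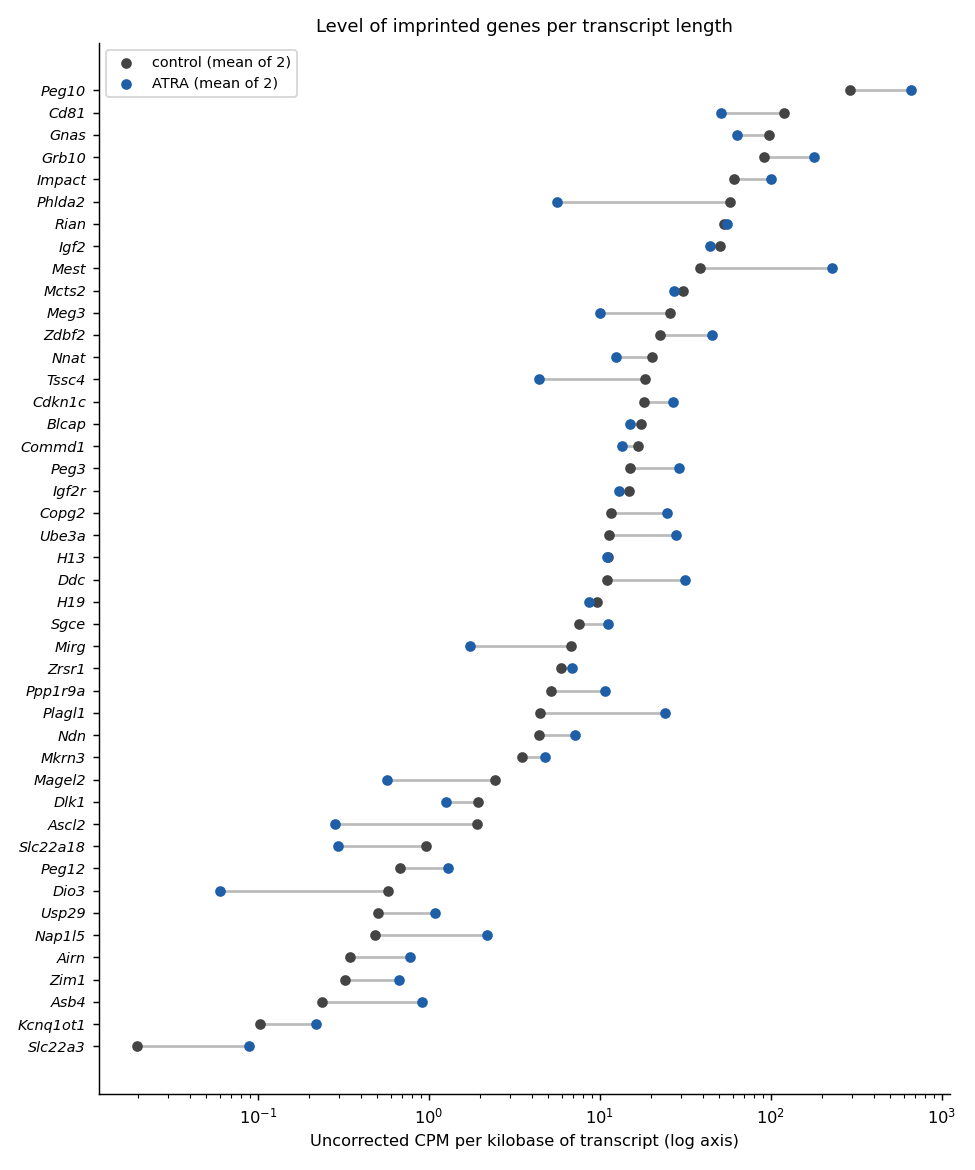
Uncorrected level per kilobase of transcript (CPM per kb, log axis) in the control (grey) and ATRA (blue) groups, means of 2 libraries, for the 44 members with a count in both groups, ordered by the control level. Peg10 is highest in both groups, Mest moves from 38.4 to 228 and Phlda2 from 57.9 to 5.64 CPM per kb.

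The Snrpn-Ube3a locus, the mouse counterpart of the Prader-Willi and Angelman syndrome region, extends over 3236 kb of chromosome 7. Snrpn, which encodes a splicing protein, had 0 counts in all 4 libraries, as did Snurf, whose exons on the same strand overlap those of Snrpn. A count of 0 allows up to 0.094 to 0.309 CPM by library, and counters can leave out reads shared by overlapping genes, so this 0 may not mean that the transcript was absent. Peg12, of the FRAT family of Wnt pathway proteins, rose in the GC-corrected fit at a very low level. It was counted at 1.94, 1.65, 4.10 and 2.78 CPM, with log2 fold changes of 0.95 ± 0.40 (adjusted p = 0.125) and 2.33 ± 0.34 (adjusted p = 0.0200). The transcript has 57.0% GC, and the corrected values were 1.11, 1.05, 4.49 and 6.93 CPM. The groups were separate in both scales, but ATRA replicate 2 lay below ATRA replicate 1 uncorrected and above it corrected.

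Ube3a, the ubiquitin ligase of Angelman syndrome, expressed from the maternal copy in neurons, was the most abundant gene of this locus per kilobase. It was counted at 120 and 103 CPM in the controls and 169 and 383 CPM with ATRA, ATRA replicate 2 standing far above the others. The log2 fold change was 1.31 ± 0.43 (adjusted p = 0.0877) uncorrected and 0.16 ± 0.12 (adjusted p = 0.381) GC-corrected, and its transcript has 36.9% GC. Ndn, Magel2 and Mkrn3, intronless neural genes, had uncorrected log2 fold changes of 0.69, −2.08 and 0.44 and corrected ones of 0.03, −0.60 and 0.44, with corrected groups that overlapped in all 3. The uncorrected values of Magel2 were 13.3, 9.44, 3.04 and 2.27 CPM, and its transcript has 57.6% GC.

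H19 and Igf2 share enhancers and an insulator bound by CTCF, and are expressed from opposite copies. Igf2, a fetal growth factor, was counted at 238 and 240 CPM in the controls and 203 and 216 CPM with ATRA. Its log2 fold change was −0.19 ± 0.25 (adjusted p = 0.569) uncorrected and 1.14 ± 0.36 (adjusted p = 0.0842) GC-corrected. The non-coding RNA H19 was counted at 23.3, 21.0, 22.7 and 17.0 CPM, with overlapping groups and a log2 fold change of −0.15 ± 0.32 (adjusted p = 0.712). Both transcripts have 55.8% GC, and the direction of both depends on the correction. After it H19 rose by 1.07 ± 0.24 (adjusted p = 0.0445), with 14.7, 14.3, 24.1 and 37.2 CPM.

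H13 and Commd1 were also called only after correction. H13, a signal peptide peptidase that hosts the retrogene Mcts2 in an intron, was counted at 56.0, 61.1, 67.9 and 47.1 CPM, with a log2 fold change of −0.02 ± 0.30 (adjusted p = 0.956). Its corrected values were 35.0, 41.2, 72.2 and 105 CPM, and the corrected rise was 1.21 ± 0.21 (adjusted p = 0.0281). Mcts2, expressed from the paternal copy and per kilobase the more abundant of the pair, was counted at 26.4, 30.0, 28.8 and 21.0 CPM. Its log2 fold change was −0.17 ± 0.31 (adjusted p = 0.677) and −0.52 ± 0.27 (adjusted p = 0.214). Because Mcts2 is a copy of another gene, its reads may be split with that gene.

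Commd1, which acts in copper transport and hosts Zrsr1 in an intron, was counted at 76.3, 75.3, 60.4 and 60.6 CPM. The groups were separate, and the log2 fold change was −0.32 ± 0.26 (adjusted p = 0.345) uncorrected and −0.87 ± 0.18 (adjusted p = 0.0366) GC-corrected. Zrsr1, a splicing factor gene that arose by retrotransposition, was at 0.21 uncorrected and −0.24 corrected. The exons of Zrsr1 and Commd1 share 412 bases on opposite strands.

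Further members were not called in either fit. Gnas, the G protein alpha subunit gene whose isoforms differ in the expressed copy, was counted at 390, 386, 278 and 226 CPM. It was lower with ATRA uncorrected (−0.62 ± 0.27, adjusted p = 0.127) and higher after correction (1.01 ± 0.31, adjusted p = 0.0780), with corrected ATRA values of 310 and 600 CPM. Nnat, a neuronal proteolipid and per kilobase the more abundant gene of its pair in the controls, though not with ATRA, was counted at 23.9, 24.9, 17.2 and 13.1 CPM, with −0.69 ± 0.31 (adjusted p = 0.145) and 0.76 ± 0.29 (adjusted p = 0.120). Blcap, its host gene, was at −0.21 and 0.17. For Gnas and Nnat, at 57.8% and 57.0% GC, the direction turned with the correction.

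Igf2r, the receptor that clears Igf2, was counted at 136, 128, 135 and 95.1 CPM, with overlapping groups and log2 fold changes of −0.19 ± 0.29 (adjusted p = 0.615) and −0.01 ± 0.13 (adjusted p = 0.959). Airn, the antisense RNA that silences Igf2r on the paternal copy, was at 0.282, 0.668, 1.20 and 0.928 CPM, with values of 1.24 and 0.84 that did not pass. Slc22a3, a transporter of the same locus, had 3, 1, 3 and 4 counts. Zdbf2, a zinc finger gene, was at 301, 271, 400 and 749 CPM (1.00 uncorrected, 0.11 corrected), and Impact, a regulator of translation under amino acid starvation, at 226, 230, 281 and 472 CPM (0.72 and −0.16). In both, ATRA replicate 2 stood well above ATRA replicate 1, and both transcripts have under 43% GC. Nap1l5 was at 1.07, 0.713, 1.56 and 6.50 CPM (2.10 and 1.28), and Rasgrf1, a guanine nucleotide exchange factor, had 1 count in control replicate 1 and none elsewhere.

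The order of uncorrected levels per kilobase put Peg10 first in the controls, at 293 CPM per kb, followed by Cd81 (120), Gnas (98.3), Grb10 (91.4), Impact (60.6) and Phlda2 (57.9). With ATRA the order was Peg10 (664), Mest (228), Grb10 (180), Impact (100), Gnas (63.8) and Rian (55.8). No order was made from GC-corrected values. Mean GC-corrected CPM went from 225 to 455 for Gnas, 305 to 272 for Impact and 617 to 313 for Rian. Peg10, Mest and Grb10 were higher with ATRA in both scales. Phlda2 went from the sixth to the 28th place and Plagl1 from the 29th to the 16th. Lengths are of GENCODE transcripts, which may differ from the authors' annotation, so close neighbours in this order are not told apart.

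Grouped by expressed copy, 22 paternally expressed members were tested, and their median log2 fold change was 0.83 uncorrected and 0.39 GC-corrected. For 20 maternally expressed members it was −0.17 and 0.07, and for all genes −0.02 and 0.01. Uncorrected, 1 of each passed, Mest and Phlda2. GC-corrected, 6 paternally expressed members passed, all higher, and 8 maternally expressed ones, 4 higher and 4 lower. In that fit 8.56% of all genes rose and 7.72% fell. The difference between the classes was not tested. The classes come from background, and the expressed copy was not measured in these cells. For Copg2, Ube3a and Ddc, that background holds for certain tissues only. GC content moved with this grouping, with a median of 46.9% in the paternal and 51.6% in the maternal class. Among the 21 tested members with under 48% GC, 19 had a positive uncorrected value (median 1.04), and of the 13 with at least 54% GC, 2 had (median −0.69). After correction these were 16 of 21 (median 0.24) and 7 of 13 (median 0.76). The part of GC content in the members' differences was not tested.

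**Figure D5:**
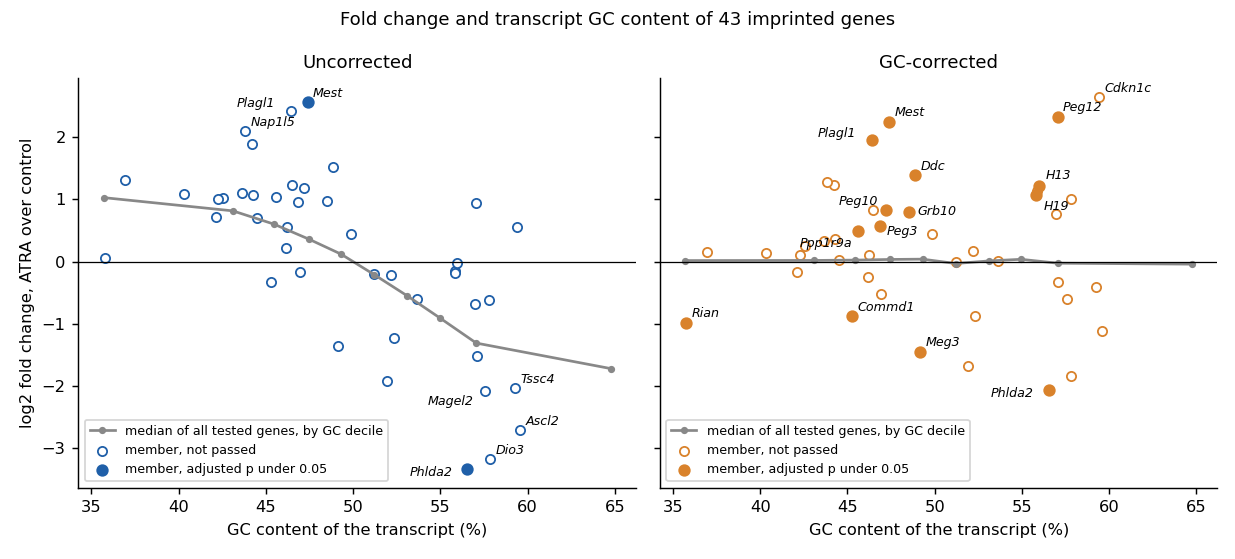
Log2 fold change of the 43 tested members against the GC content of the transcript (%), without (left) and with (right) GC correction; filled points passed an adjusted p of 0.05 and the grey line joins the medians of all tested genes by GC decile. The grey line falls from 1.03 to −1.72 on the left and stays between 0.02 and −0.04 at its ends on the right, while Mest and Phlda2 stand away from it in both panels.

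Factors that keep or set imprints, 22 genes listed with earlier results of these data known, were all tested. Uncorrected, 2 passed, both lower: the de novo methyltransferase Dnmt3b and Zfp42 (Rex1), a zinc finger protein known to bind some imprinted loci. Zfp42 also stands among the embryonic stem cell markers below. GC-corrected, 6 passed, all lower. Of all genes, 0.407% fell uncorrected and 7.72% GC-corrected. The median of the 22 was −0.60 uncorrected and −0.11 GC-corrected, against −0.02 and 0.01 for all genes. Dnmt3b was counted at 654, 600, 142 and 148 CPM, with −2.11 ± 0.27 (adjusted p = 0.0363) uncorrected and −1.48 ± 0.22 (adjusted p = 0.0209) corrected, and Zfp42 at 574, 562, 145 and 151 CPM, with −1.94 ± 0.26 (adjusted p = 0.0399) and −2.36 ± 0.13 (adjusted p = 0.00287). Both had ATRA libraries close together and far below the controls.

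Zfp57 was counted at 320, 369, 192 and 222 CPM, with −0.74 ± 0.27 (adjusted p = 0.0980) and −1.24 ± 0.12 (adjusted p = 0.00992). The GC-corrected falls of Tet1, a dioxygenase that oxidises methylcytosine, Dppa3, which protects maternal marks after fertilisation, and Dnmt3l, a cofactor of de novo methylation, were −1.33 ± 0.095, −1.69 ± 0.23 and −1.00 ± 0.15 (adjusted p = 0.00547, 0.0184 and 0.0207). Their uncorrected values, −0.56, −1.14 and −1.58, did not pass. The maintenance factors Dnmt1, Uhrf1, Trim28 and Setdb1 passed in neither fit, with uncorrected values of −0.80, −0.62, −1.47 and 0.02 and corrected values of −0.08, 0.12, 0.19 and −0.04. Trim28, with 59.6% GC, was counted at 2703 and 2770 CPM in the controls and 1420 and 560 CPM with ATRA, the ATRA libraries far apart. With 1 library left out, GC-corrected log2 fold changes ran from −2.51 to −2.22 for Zfp42 and from −1.83 to −1.19 for Dnmt3b. They ran from −1.34 to −1.14 for Zfp57 and from −1.38 to −1.28 for Tet1. For Dppa3 they ran from −1.96 to −1.45 and for Dnmt3l from −1.20 to −0.82. Neither uncorrected call stood in every fit that leaves out 1 library, nor did the GC-corrected calls of genes other than Zfp42.

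Markers of cell types moved as follows, with CPM and summed levels uncorrected unless stated. Of all genes, 0.723% rose and 0.407% fell uncorrected, and 8.56% rose and 7.72% fell GC-corrected. An unadjusted p under 0.05 was found for 5941 of the 14256 genes uncorrected and 5450 GC-corrected. DESeq2's test called 4268 of 18882 genes, 1615 higher and 2653 lower. All 8 embryonic stem cell markers were detected, 3 fell uncorrected and 6 GC-corrected, and their summed level was 3619 and 3621 CPM in the controls and 1649 and 1302 CPM with ATRA. Mesoderm markers, with 4 of 7 tested, summed to 166 and 141 CPM and to 17.1 and 21.3 CPM, and 1 fell uncorrected and 2 GC-corrected. Trophoblast markers, relevant to Phlda2, Ascl2, Peg10 and Cdkn1c, summed to 68.6 to 71.0 CPM in the controls and 69.0 to 72.7 CPM with ATRA, with Tpbpa and Prl3d1 at 0 in every library. With edgeR's test 0 of 7 tested passed uncorrected (3 at an unadjusted p under 0.05, and 1 passed with DESeq2), and 2 rose GC-corrected. Extraembryonic endoderm markers summed to 258 to 268 CPM and 242 to 264 CPM, most of it Lamb1, and the other 9 to 26.5 and 27.2 CPM in the controls and 56.0 and 84.7 CPM with ATRA. Ttr was at 0 in every library. With edgeR's test 0 of 7 passed uncorrected (5 at an unadjusted p under 0.05, and 4 with DESeq2, all higher) and 5 rose GC-corrected. Neural progenitor markers, with 6 of 7 tested, summed to 323 to 383 CPM and 300 to 399 CPM, of which Nes held 248, 207, 214 and 295 CPM. Uncorrected, Sox1 rose (1.60, 1.56, 23.8 and 30.7 CPM) and Tubb3 fell (log2 fold change −2.80), and GC-corrected 3 rose and 1 fell. Fibroblast markers, relevant to Mest, summed to 334 to 374 CPM and 147 to 221 CPM. With edgeR's test 0 of 7 passed in either fit (2 at an unadjusted p under 0.05 in each, and 2 with DESeq2, both lower). Col1a1 (58.9% GC) was at 141, 91.9, 40.1 and 24.1 CPM, and GC-corrected at 71.0, 54.9, 46.3 and 69.0 CPM. Acta2 was at 155, 178, 118 and 40.4 CPM, and GC-corrected at 158, 179, 116 and 39.9 CPM. Col1a2 was GC-corrected at 33.9, 30.5, 46.6 and 110 CPM. The part of a change in cell types in the members' differences was not tested.

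In fits that leave out 1 library, the lone library of a group is assumed to vary like the other group. How many genes pass there depends largely on which pair of libraries remains. These fits therefore cannot show how far single libraries carry a call. Not all of the 14 GC-corrected calls stood in each of the GC-corrected fits of this kind. The directions of all 14 held in each of them.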

How the data were processed

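RNA of 4 libraries was analysed. For each library the authors deposited raw counts, whole numbers of reads listed by gene symbol with no normalization. Per the submitters' processing notes, TopHat2 2.0.7, Cufflinks 2.0.2, HTSeq 0.6.0, Cuffdiff 2.0.2 and the build mm10 were used, with no role or order named. The annotation is not given in the sources used here, nor the strand setting. The 5 summary lines below the 23420 genes entered neither library sizes nor tests. Unassigned reads (no annotated gene) were 63.4% to 66.2% of the counted reads of a library.

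Groups and replicate numbers came from the sample titles. Counts were tested with edgeR 4.0.16 in R 4.3.3 (expression filter by group, TMM, robust quasi-likelihood F test, no covariate), with Benjamini-Hochberg adjustment over all genes and a threshold of 0.05. Each SE equals the absolute log2 fold change over the root of its F statistic. The GC correction fitted, per library, deviations of log2 CPM (prior count 2, genes above a mean log2 CPM of 1) on transcript GC with a robust natural spline of 5 degrees of freedom (MASS 7.3.60.0.1) and used the fit as offsets. Symbols were matched to GENCODE M21 (GRCm38), 21777 directly and 1260 by an older symbol, and 383 had none. All 47 members matched. Floors take 3 counts per library as the limit that a count of 0 allows. The fits were tested on simulated counts in which some genes had known changes.

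The members, lists and the GC correction were chosen with earlier results of these data known. Every member is named. Full values are given for those past the threshold in either fit and for the most abundant per kilobase in each locus with several members. Called genes of the further lists are given in part, some without CPM or without the uncorrected SE and adjusted p. For the retinoic acid response genes only the range of log2 fold changes is given. Alternatives were DESeq2 1.42.0 and its size factors, other filters, a replicate block and each library left out.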

Additional observations from a re-analysis of the deposited data

How the results depend on the processing

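Counts of members called (2 of 43) stayed within 1.5 times with no filter (3) and a stricter filter (2), and became 6 with DESeq2's size factors, 20 with the DESeq2 test and 14 GC-corrected. For all genes (161) they became 603, 4268 and 2321 under the same 3 settings. The imprint maintenance list (2) gave 10 with DESeq2's test and 6 GC-corrected. The further imprinted list (0 with edgeR, 12 at an unadjusted p under 0.05) gave 3 with DESeq2's size factors, 7 with its test and 5 GC-corrected. The cause of these differences was not tested. With 1 library left out, with or without GC correction, the counts ran from 31 to 10289 for all genes, 1 to 35 for members, 0 to 21 for imprint maintenance and 0 to 25 for the further list.

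Samples share only replicate numbers: deviations of same-numbered libraries correlated at 0.183 across genes uncorrected and −0.0464 GC-corrected, with 2 pairs and no label that ties them. With a replicate block, 4401 genes, 16 members, 8 imprint maintenance genes and 7 further imprinted genes were called, and with block and GC correction 2625, 18, 7 and 5.

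The log2 fold changes that changed sign with GC correction were H19 1.07, Igf2 1.14, Dlk1 0.01, Rian −0.98, Impact −0.16, Nnat 0.76, Blcap 0.17, Zrsr1 −0.24, Gnas 1.01, H13 1.21. With replicate block and GC correction they were H19 1.04, Igf2 1.03, Rian −1.00, Impact −0.16, Nnat 0.73, Blcap 0.17, Zrsr1 −0.24, Gnas 0.94, H13 1.20. Over the fits that leave out 1 library, with or without GC correction, fold changes that crossed 0 ran as follows: Blcap −0.33 to 0.28, Dlk1 −1.34 to 0.22, Gnas −0.79 to 1.42, H13 −0.32 to 1.48, H19 −0.40 to 1.37, Igf2 −0.22 to 1.61, Igf2r −0.48 to 0.13, Impact −0.18 to 1.03, Mcts2 −0.93 to 0.05. The others were Mkrn3 −0.15 to 0.89, Ndn −0.07 to 0.87, Nnat −0.91 to 1.14, Rian −1.21 to 0.28, Sgce −0.07 to 0.56, Slc22a18 −8.03 to 0.15, Zim1 −0.07 to 1.21, Zrsr1 −0.39 to 0.33. Mest and Phlda2 kept their sign in every fit made. The −8.03 of Slc22a18 is a fitted value against a lone library with no count and is no bound. A count of 0 allows 0.094 to 0.309 CPM by library, so differences of genes near that level were not detectable.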

Other observations

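A further 45 genes reported as imprinted were listed beside the members, and 32 of the 42 present in the tables were tested. With edgeR's test 0 passed uncorrected (12 at an unadjusted p under 0.05, and 7 with DESeq2's test). Over all 14256 genes tested, 161 passed uncorrected and 5941 had an unadjusted p under 0.05. DESeq2's test called 4268 of 18882. GC-corrected, Casd1, Ano1, Phactr2 and Dcn rose and Pde4d fell, beside 8.56% of all genes that rose and 7.72% that fell. Casd1, a sialic acid acetyltransferase gene beside Sgce and Peg10, was counted at 20.9 and 21.5 CPM in the controls and 64.0 and 108 CPM with ATRA, with log2 fold changes of 2.02 ± 0.35 (adjusted p = 0.0578) and 1.25 ± 0.12 (adjusted p = 0.0104). Phactr2, an actin regulator on chromosome 10, as is Plagl1, was counted at 8.06, 7.66, 21.5 and 26.4 CPM, with 1.60 ± 0.32 (adjusted p = 0.0603) and 0.96 ± 0.18 (adjusted p = 0.0313). The groups of both were separate in both scales.

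The proteoglycan gene Dcn was at 0.909, 1.51, 7.70 and 7.12 CPM and the chloride channel gene Ano1 at 0.972, 0.668, 4.17 and 2.58 CPM, both scarce, with GC-corrected rises of 1.89 ± 0.41 (adjusted p = 0.0416) and 2.32 ± 0.36 (adjusted p = 0.0219). Pde4d, a phosphodiesterase of cyclic AMP, was at 15.7, 17.2, 8.27 and 8.15 CPM and fell by 1.02 ± 0.18 (adjusted p = 0.0273) GC-corrected. None of these 5 GC-corrected calls stood in every fit that leaves out 1 library, and all 5 kept their direction there. Rtl1, a retrotransposon-derived gene of the Dlk1-Dio3 domain expressed from the paternal copy, was at 4.76, 5.43, 2.76 and 2.17 CPM, with −1.03 ± 0.37 (adjusted p = 0.0974) and −0.15 ± 0.30 (adjusted p = 0.737). Slc38a4, an amino acid transporter gene known for imprinting in the placenta, was at 312, 331, 556 and 795 CPM, with 1.07 ± 0.30 (adjusted p = 0.0752) and 0.30 ± 0.092 (adjusted p = 0.0787). Rtl1 and Slc38a4 were chosen after their values were seen.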
